A study of Drosophila melanogaster with 3 samples.

Results

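Binding of the protein CG1647 was described at 10 genes that drive the cell cycle of Drosophila melanogaster. They are the cyclin genes CycA, CycB, CycB3, CycD and CycE, the genes Cdk1, Cdk2 and Cdk4 for cyclin-dependent kinases (Cdks), and the Cdc25 phosphatase genes stg and twe. All 10 were found by symbol among 13945 protein-coding genes on 6 chromosome arms of the dm6 assembly. For each gene, a summit (the highest point of a peak) was counted if it lay in the gene or within 1 kb of one of its transcription start sites (TSS). The peaks came from chromatin immunoprecipitation followed by sequencing (ChIP-seq) of whole embryos collected over 0 to 24 h, males and females together. The embryos belonged to 1 transgenic line that carries CG1647 with GFP fused to its C-terminal end, and an antibody against GFP was used. The chromatin was sonicated to fragments of 200 to 800 bp. No source used here names the promoter that drives the transgene. There were 3 biological replicates and 1 group, so no condition was compared with another. Such embryos hold every embryonic tissue and many stages, and binding in few cells cannot be told apart from weak binding in many.

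Cyclins are proteins whose levels rise and fall through the cell cycle, and each switches on a partner Cdk. CycD with Cdk4 acts in growth and the G1 phase, CycE with Cdk2 starts DNA replication, and CycA, CycB and CycB3 with Cdk1 drive mitosis. Cdc25 phosphatases remove inhibitory phosphates from Cdk1. In the fly embryo the earliest divisions run on maternal products, and later divisions are timed by transcription of stg, while twe acts mainly in the germline and in meiosis.

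Binding was recorded at 3 of these genes, a count not set apart from the share of all genes. The peaks that the authors kept after filtering by irreproducible discovery rate (IDR), here the retained list, numbered 3123. Their signal values, given by the authors' peak caller, ran from 126 to 2899. A retained summit was found at 3 of the 10 genes, namely CycB, CycE and Cdk4, where 21.3% of all protein-coding genes had one. Within 500 bp of a TSS the count was 2 of 10, CycB and CycE, against 16.2% of all genes. Both counts are small, and a single gene moves them by 10 percentage points, so they are not set apart from the background. The 3 genes held 4 retained summits, of which the best was that of Cdk4 at rank 1411 by signal. The tagged gene itself, CG1647, had 2 retained summits, the better at rank 1327.

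The longer candidate lists, which hold background as well as peaks, gave a different count. In the candidate list of the pooled alignments, with 19204 peaks, 9 of the 10 genes had a summit in the gene or within 1 kb of a TSS, against 59.4% of all genes. The same 9 genes had one within 500 bp of a TSS, where 44.0% of all genes did, and twe was the exception in both. The replicates' own candidate lists held a summit at 10 genes in replicate 1 (70.3% of all genes), 7 in replicate 2 (56.7%) and 10 in replicate 3 (69.4%). Replicate lists differ in length (30000, 17977 and 30000 peaks), so these counts do not measure the extent of binding. Among the 9 genes with a pooled candidate the median best rank was 4810, close to the 5172 of the 8280 protein-coding genes with one. The lengths of the 10 genes ran from 1524 bp (Cdk1, longer than 35.0% of genes) to 20570 bp (CycE, longer than 92.9%).

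When each replicate list was reduced to its 3123 best-ranked peaks, the length of the retained list, the genes with a summit were 2 in replicate 1 (CycB and Cdk4; 20.0% of all genes), 5 in replicate 2 (CycB, CycD, CycE, Cdk1 and Cdk4; 21.4%) and 4 in replicate 3 (CycB, CycD, CycE and Cdk4; 21.4%). The mean was 3.67 ± 1.53 genes (SD, n = 3), while the share of all genes moved little, at 20.9% ± 0.808 (SD, n = 3). CycB and Cdk4 were in the best-ranked list of all 3 replicates, as were 14.1% of all protein-coding genes. CycD, CycE and Cdk1 therefore account for the spread between replicates. CycA, CycB3, Cdk2, stg and twe reached the best-ranked list in 0 replicates.

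**Figure D1:**
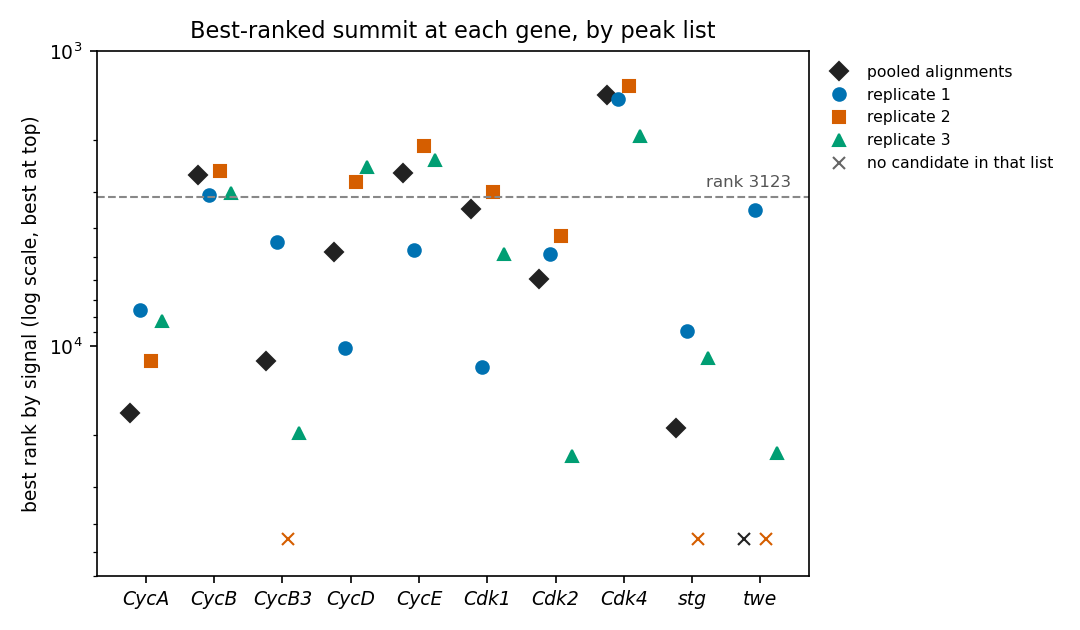
The best rank by signal (vertical axis, log scale, best at the top) of any summit in each gene or within 1 kb of its TSS is plotted for the pooled candidate list and for each replicate, with a dashed line at rank 3123 and crosses for genes with no candidate in a list. Cdk4 and CycB lie above the line in every list, CycE misses it in replicate 1, CycD in replicate 1 and the pooled list, and Cdk1 passes it in replicate 2 alone.

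CycE, whose product activates Cdk2 at the start of S phase, had 2 retained summits, both in an intron of the gene and upstream of an internal TSS. The gene (FBgn0010382) lies on the minus strand of 2L at 15727581 to 15748150, with 3 distinct TSS. The first summit, at 15747057, was 447 bp upstream of the nearest of these TSS, with a signal of 141 and rank 2602. The second, at 15747293, was 683 bp upstream, with a signal of 126 and rank 3121, only 2 places from the end of the retained list. The summits are 236 bp apart. The 201 bp around each are shown because they are the bound sequence of this gene, on the strand of the gene, from the RefSeq copy of the assembly. Capitals mark CGATA, the core of the site of the insulator protein BEAF-32, read on either strand, which the first window holds and the second does not.
CycE first summit, chr2L:15746957-15747157, minus strand: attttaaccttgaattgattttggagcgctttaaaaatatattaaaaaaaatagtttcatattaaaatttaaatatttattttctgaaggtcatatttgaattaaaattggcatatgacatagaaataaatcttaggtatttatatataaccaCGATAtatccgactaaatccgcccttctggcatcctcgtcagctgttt
CycE second summit, chr2L:15747193-15747393, minus strand: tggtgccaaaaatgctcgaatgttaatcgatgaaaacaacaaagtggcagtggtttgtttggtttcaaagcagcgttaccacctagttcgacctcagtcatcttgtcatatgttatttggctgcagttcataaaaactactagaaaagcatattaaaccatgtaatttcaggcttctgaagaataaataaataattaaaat

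The first of these CycE windows has a GC content of 26.4% and the second 34.3%, where the interquartile range of all retained windows was 33.3% to 41.8%. The replicates did not rank the first summit alike. Replicates 1, 2 and 3 gave it ranks 4734, 2123 and 2337 (mean 3065 ± 1449.6, SD, n = 3), at positions within 41 bp of each other. The second had ranks 6912, 2109 and 6695 in the same order (mean 5239 ± 2713, SD, n = 3), with the positions within 5 bp. Replicate 2 thus placed both CycE summits among its best 3123, replicate 3 the first, and replicate 1 neither. Without replicate 2 or without replicate 3, when a retained peak had to overlap a best-ranked peak of both other replicates, CycE was no longer counted. An antisense RNA gene, asRNA:CR44866, starts 944 bp from the first summit and 708 bp from the second, and lncRNA:CR44974 starts 800 bp from the first.

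The replicates listed more candidate summits along CycE than the pooled list did. Across its 20570 bp, replicate 1 listed 10 candidate summits, replicate 2 listed 5 and replicate 3 listed 11, but the pooled list held the 2 retained ones alone. A site in the 5′ UTR of CycE, at the most upstream TSS, was listed in replicate 1 (summit 15747961, rank 16575) and replicate 3 (15747970, rank 6740), 189 and 180 bp downstream of that TSS. It was in neither replicate 2 nor the pooled list.

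CycD, the G1 cyclin that pairs with Cdk4, was not called, although 2 replicates ranked it highly. The gene (FBgn0010315) is on the minus strand of X at 15906822 to 15909676 with 1 TSS. In replicate 1 its best summit was in a coding exon, at rank 10138. The summit upstream of the gene in that replicate, 504 bp from the TSS, was at rank 12296. The best summit was at rank 2783 in replicate 2 (460 bp upstream) and 2473 in replicate 3 (217 bp upstream). Both latter ranks are within the best 3123 of their lists. The 3 upstream positions spread over 287 bp, the widest among the sites found within 200 bp in all 3 replicates. In the pooled list the summits were 199 bp apart, at 15909981 (signal 97.4, rank 4810) and 15910180 (signal 57.7, rank 15271), 305 and 504 bp upstream. Lrp4, a gene for a receptor related to the LDL receptor, starts on the other strand 1194 bp from the TSS of CycD and is the only other gene with a TSS within 1 kb of these summits. The nearest retained peak to the TSS of CycD lay 38700 bp away, in an intron of CG16952.

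CycA and CycB3, which with CycB are the cyclins of mitosis, had weak candidates at their promoters. CycA (FBgn0000404, minus strand of 3L, 11826719 to 11833578) had a pooled summit 4 bp downstream of its TSS, in the 5′ UTR, with a signal of 55.4 and rank 16811 of 19204. Replicates 1 and 3 placed a summit 6 bp from it, at ranks 8872 and 11157, and replicate 2 had none within 200 bp. The best CycA summits anywhere in the gene were at ranks 7556, 11206 and 8211 (mean 8991 ± 1946, SD, n = 3), each in a different place. CycB3 (FBgn0015625, minus strand of 3R, 24867934 to 24870816) had a pooled summit 61 bp upstream of its TSS with a signal of 65.3 and rank 11287. Replicate 1 gave it rank 4438 and replicate 3 rank 19699, and replicate 2 listed no candidate at the gene. The nearest retained summits were 10791 bp from the TSS of CycA, at the ribosomal protein gene RpL10Ab, and 5874 bp upstream of CycB3, at CG3744.

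The CycA window is shown because it holds the DNA replication-related element (DRE, TATCGATA), a promoter element bound by Dref and BEAF-32. Capitals mark this element and CGATA.
CycA, chr3L:11833474-11833674, minus strand: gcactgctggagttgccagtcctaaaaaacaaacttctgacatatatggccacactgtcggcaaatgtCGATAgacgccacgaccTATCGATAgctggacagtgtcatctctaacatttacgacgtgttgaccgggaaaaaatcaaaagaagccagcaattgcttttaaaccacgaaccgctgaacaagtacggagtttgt
The DRE starts 15 bp before the summit and a separate CGATA starts 32 bp before it. The DRE was present around 2.34% of all pooled summits and 4.90% of retained ones, so this CycA site has the element without having been called.

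CycB, whose product is a partner of Cdk1 in mitosis, was the only mitotic cyclin gene with a retained peak. The gene (FBgn0000405) lies on the minus strand of 2R at 22803521 to 22806948. Its summit at 22806993 was 45 bp upstream of the TSS, with a signal of 139.6 and rank 2638. Replicates 1, 2 and 3 ranked it 3084, 2550 and 3044 (mean 2893 ± 297, SD, n = 3), and all 3 values fall inside the best 3123. Replicates 1 and 3 placed the summit within 1 bp of the pooled one and replicate 2 placed it 66 bp away. The gene stl, which encodes a metalloprotease, starts on the other strand 912 bp from the TSS of CycB, and the summit lay 867 bp upstream of its TSS. The window of CycB had a GC content of 43.3% and 4 matches to CGATA, which start 99 and 90 bp before the summit, 1 bp before it and 2 bp after it.

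**Figure D2:**
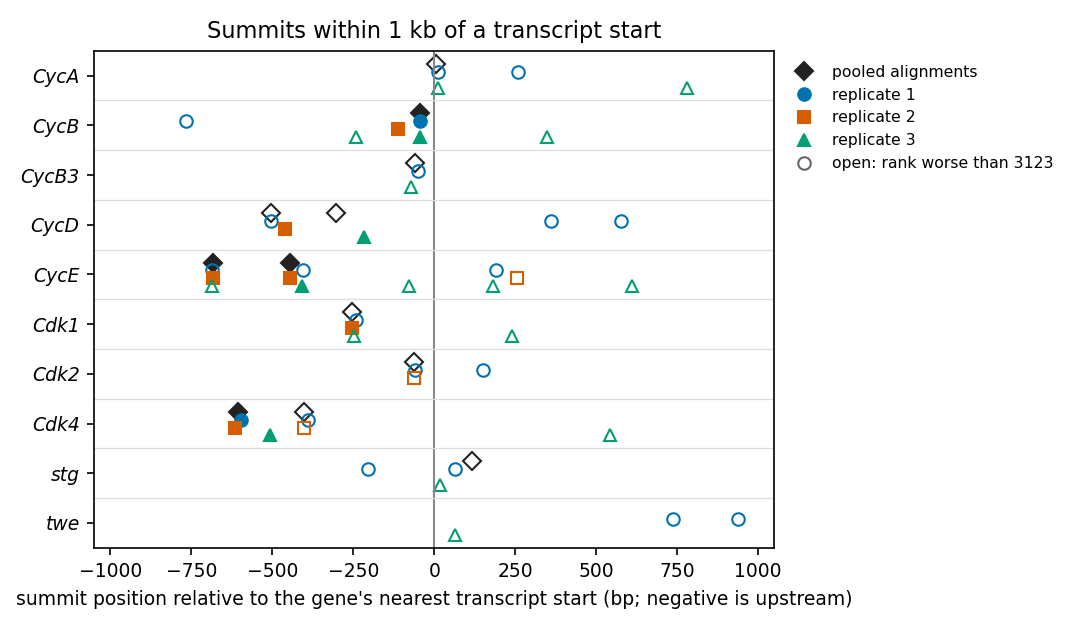
Each point is a candidate summit placed by its distance in bp to the nearest TSS of the gene (horizontal axis, negative is upstream), for the pooled list and the 3 replicates, filled where its rank is 3123 or better. Within the 1 kb shown, the filled points lie 44 to 683 bp upstream, at 5 genes, while open points lie on both sides.

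Nearly all best-ranked summits lay upstream of a TSS, the exception being a Cdk4 intron site in replicate 1, 3213 bp downstream of a TSS. Of the 13 pooled summits at the 10 genes, 9 were within 500 bp of a TSS and 8 were intergenic, 3 intronic and 2 in a 5′ UTR. Coding exons held 14 of the 36 candidate summits of replicate 1, 2 of 13 in replicate 2 and 5 of 29 in replicate 3. Their best ranks were 3465, 16040 and 10191, and coding exons held none of the 3, 6 and 4 best-ranked summits of replicates 1, 2 and 3, nor any of the 4 retained ones. These positions are not set beside those of all summits in the lists, so they describe the 10 genes only. The counting rule itself admits only summits in a gene or within 1 kb of a TSS. In each replicate 6 of the candidate summits had a counterpart within 200 bp in both other replicates, and these were at CycB, CycE, Cdk1 and Cdk4. That is 16.7% of the summits of replicate 1, 46.2% of replicate 2 and 20.7% of replicate 3, where the whole lists gave 27.9%, 46.1% and 28.0%. No counterpart in either other replicate was found for 18, 3 and 14 of them, where the whole lists gave 42.5%, 24.8% and 41.6%.

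Cdk1, the kinase of mitosis, had the candidate closest to being called among the genes with none. The gene (FBgn0004106) is on the minus strand of 2L at 10384739 to 10386262. Its pooled summit at 10386516, with a signal of 119, was at rank 3437, 314 places past the end of the retained list. Replicates 1, 2 and 3 ranked it 11793, 3021 and 4897 (mean 6570.3 ± 4619, SD, n = 3), so replicate 1 placed it far lower than the others. The positions lay within 11 bp. The summit lies between 2 genes that start head to head, 254 bp upstream of Cdk1 and 146 bp upstream of mRpS7, a mitochondrial ribosomal protein gene, whose TSS is 400 bp from that of Cdk1. It is thus nearer to mRpS7 and cannot be assigned to either gene. A retained summit was 1757 bp upstream of Cdk1, at the promoter of da (daughterless, a transcription factor gene), with a signal of 149.7 and rank 2373. With a window of 2 kb in place of 1 kb that summit counts for Cdk1.

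Cdk2, the partner of CycE, had a candidate 64 bp upstream of its TSS in the pooled list (gene FBgn0004107, plus strand of 3R, 20735623 to 20738414), with a signal of 87.3 and rank 5915. Replicate 1 placed it 4 bp away at rank 4890 and replicate 2 placed it 1 bp away at rank 4252. Replicate 3 had no candidate within 200 bp and listed a single one at the gene, in a coding exon at rank 23547. The nearest retained peak to the TSS was 86426 bp away, at the ribosomal protein gene RpS20. The microRNA gene mir-995 lies inside Cdk2 and starts 364 bp from the pooled summit, and CR42786 starts 811 bp from it. The annotation also lists FBtr0304199_df_nrg and FBtr0304200_df_nrg, which start 380 and 418 bp from it. The windows of both kinase genes are shown because the first lies at a shared promoter just past the end of the retained list and the second holds a DRE. Capitals mark TATCGATA and CGATA on either strand.
Cdk1 and mRpS7, chr2L:10386416-10386616, minus strand: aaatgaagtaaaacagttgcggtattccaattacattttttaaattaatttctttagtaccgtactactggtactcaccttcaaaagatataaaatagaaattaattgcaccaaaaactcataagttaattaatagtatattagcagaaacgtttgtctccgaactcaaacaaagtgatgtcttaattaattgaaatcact
Cdk2, chr3R:20735459-20735659, plus strand: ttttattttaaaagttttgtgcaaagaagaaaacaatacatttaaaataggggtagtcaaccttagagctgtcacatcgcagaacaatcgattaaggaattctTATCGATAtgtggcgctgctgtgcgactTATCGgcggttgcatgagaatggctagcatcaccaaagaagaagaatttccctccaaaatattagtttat
The Cdk1 window has a GC content of 27.4% and no match to any of the 8 motifs searched. In the Cdk2 window, at 36.8% GC, the DRE starts 3 bp after the summit and a separate CGATA match 31 bp after it.

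Cdk4, the partner of CycD, had the strongest site of the 10 genes. The gene (FBgn0016131) lies on the plus strand of 2R at 16579470 to 16585448, with 5 distinct TSS. The retained summit at 16578865 was 605 bp upstream of the first of these, intergenic, with a signal of 201 and rank 1411. Replicates 1, 2 and 3 ranked it 1460, 1320 and 1938 (mean 1573 ± 324, SD, n = 3), well inside the best 3123 each time. No other gene had a TSS within 1 kb of this summit. Cdk4 was also the only one of the 10 genes with a peak among the 1561 retained peaks of highest signal, where 12.2% of all protein-coding genes had one.

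Cdk4 had further sites that were not retained. A pooled summit 203 bp from the retained one, 402 bp upstream of the gene, was at rank 3274, 151 places past the end of the retained list. Its ranks were 16980 in replicate 1 and 3428 in replicate 2, and replicate 3 had a single summit between both sites, at 507 bp upstream. An intronic summit at 16584046, 3213 bp downstream of the nearest Cdk4 TSS, had a signal of 102 and rank 4442 in the pooled list. It was at rank 1619 in replicate 1 and 3358 in replicate 3, within 4 bp of each other, and had no counterpart in replicate 2. Replicate 1 therefore ranked this intronic site nearly as high as the retained one, and replicate 2 did not list it. The antisense RNA gene asRNA:CR44375 starts 677 bp from it.

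The Cdc25 genes stg and twe stood last of the 10 in the pooled list, but not in every replicate, since twe had the third best rank of the 10 in replicate 1. For stg (FBgn0003525, minus strand of 3R, 29251826 to 29255800), the pooled summit was 116 bp downstream of a TSS in the 5′ UTR, with a signal of 52.6 and rank 18977 of 19204. Replicate 1 had a best rank of 8920, in the 3′ UTR, and replicate 3 of 11007, 16 bp downstream of a TSS, so these were not the same site, and replicate 2 listed none. The replicate 3 summit lay 100 bp from the pooled one, and replicate 1 had a weaker summit 155 bp from it, at rank 16143. CG45544 starts 801 bp from the pooled summit. The nearest retained peak was 35197 bp away, at the translation factor gene eEF1gamma. For twe (FBgn0002673, minus strand of 2L, 16259414 to 16261877), the pooled list and replicate 2 held no candidate. Replicate 1 had coding exon summits at ranks 3465 and 15296, 937 and 738 bp downstream of a TSS. Replicate 3 had a summit in the 5′ UTR at rank 23115, and none of the 3 had a counterpart within 200 bp in another replicate. CG4935 starts 264 bp from the twe TSS on the other strand, and a retained summit 4091 bp from twe lay at EndoGI, an endonuclease inhibitor gene.

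Set among all protein-coding genes, of which 59.4% had a pooled candidate, the best pooled ranks of the 9 genes spread widely. Genes without a candidate stay in the total of the shares given here. The share of protein-coding genes with a better pooled rank was 11.1% for Cdk4, 18.6% for CycE, 18.8% for CycB, 22.7% for Cdk1, 28.4% for CycD, 32.4% for Cdk2, 46.6% for CycB3, 56.4% for CycA and 59.1% for stg. The neighbours CycE and CycB in this order, at pooled ranks 2602 and 2638, differ by far less than the SD of CycE between replicates. Cdk4 and CycB did not overlap over the replicates, the worst rank of Cdk4 being 1938 and the best of CycB 2550. The ranges of CycD, CycE, Cdk1 and Cdk2 overlapped one another.

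**Figure D3:**
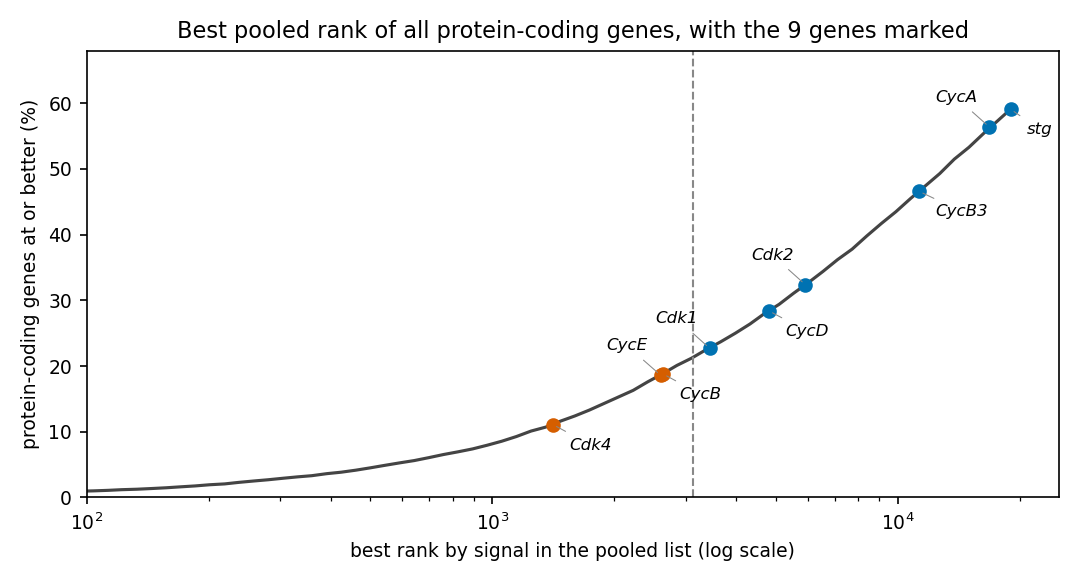
The curve gives the percent of all protein-coding genes whose best pooled summit has a given rank or better (horizontal axis, log scale), the points are the 9 of the 10 genes with a pooled candidate, and the dashed line is at rank 3123. Cdk4, CycE and CycB lie left of the line, Cdk1 just right of it at 3437, and CycA and stg at the far end.

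Partners in a complex were set side by side by their calls. Of the pair CycD and Cdk4, Cdk4 was called in the retained list and CycD was not. Of CycE and Cdk2, and of CycB and Cdk1, the cyclin gene was called. CycA and CycB3, which also pair with Cdk1, were not called, so in those pairs neither gene was. Among the best-ranked peaks of single replicates, CycD and Cdk4 were both called in replicates 2 and 3. CycB and Cdk1 were both called in replicate 2, while Cdk2 was called in none. In replicate 2, as in replicate 3, 21.4% of all protein-coding genes were called. The Cdk1 summit of replicate 2 lies nearer to mRpS7 and cannot be assigned to either gene. All of these are calls at a threshold, which Cdk1 missed by 314 places in the pooled list, and no difference between partners was tested.

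Genes whose peak ranked most like those of the called members were sought among 2588 other genes with a retained summit within 1 kb of a TSS. The measure was the distance between signal percentiles in 4 lists, the pooled list and the 3 replicates. For Cdk4 the nearest were indra (0.719 percentile points) and Fmr1 (0.906), an RNA-binding protein gene. For CycB they were CG5171 (1.25) and CG7744 (1.56), and for CycE they were Sec63 and pst, which share 1 peak (0.622). Likeness over 4 lists says nothing on function.

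The sequence around the summits was searched on both strands for 8 motifs within 100 bp. CGATA, which is contained in the DRE, was at 3 of the 4 retained summits of these genes, those of CycB and Cdk4 and the first of CycE, against 32.8% of all 3123 retained summits. The DRE itself was at 0 of the 4 (4.90% of all retained). The E2F site, searched as TTTGGCGC, TTTCCCGC, TTTCGCGC or TTTGCCGC, was at 0 of the 4 and 0 of the 13 pooled summits, against 3.68% of all retained and 4.12% of all pooled summits. GAGAG was at 0 of the 4, against 24.0% of all retained summits, and the Zelda site CAGGTAG at 0 of the 4, against 0.929%. The E-box CACGTG and core promoter motifs 1 and 7 were also at 0 of the 4, against 2.56%, 1.73% and 7.08%. Among the 9 pooled summits that were not retained, GAGAG was found at CycB3 and in the Cdk4 intron, CAGGTAG at stg, motif 1 at CycB3 and motif 7 at CycA. With so few summits these are descriptions and no share can be read from them.

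The promoters of the 10 genes, taken as 250 bp before to 50 bp after each TSS, were searched for the same motifs. A gene with more TSS had more sequence searched: CycB and CycE have 3 TSS each, Cdk4 5, stg and twe 2 each, and the others 1. The DRE was in the promoters of CycA, Cdk2 and Cdk4, and in those of 10.2% of protein-coding genes. An E2F site was in those of CycB, CycE and stg, against 8.72% of genes. E2F is the factor that switches on genes of S phase, CycE among its known targets. Motif 1 was at CycB and CycB3 (4.96% of genes), motif 7 at CycA (9.31%), CGATA at CycA, CycB, CycD, Cdk2 and Cdk4 (53.1%), and GAGAG at CycB, CycB3, CycE, Cdk4 and stg (36.4%). CAGGTAG (2.30%) and CACGTG (5.34%) were in 0 of the 10. Of the 3 genes with a DRE in a promoter, Cdk4 had a retained summit, but 605 bp upstream of its first TSS and with no DRE within 100 bp, and CycA and Cdk2 had none.

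Other genes of the cell cycle were counted by the same rule in 7 lists with 57 genes, 1 of them found under its newer symbol lmgA. A retained summit was found at 21 (36.8%), against 3 of the 10 cyclin, Cdk and Cdc25 genes and 21.3% of all genes. For each replicate left out, a retained peak had to overlap a best-ranked peak of both other replicates. The count then fell to 10 of 57 both without replicate 2 and without replicate 3. In these cases 14.9% and 15.1% of all genes had such a summit. Among the 1561 retained peaks of highest signal the count was 6 of 57, a share close to, and not above, the 12.2% of all genes. Among other cyclin genes 2 of 7 had one, CycH (signal 132), the partner of Cdk7, and CycG (129). Other Cdk genes gave 3 of 7, with Eip63E (347), Pitslre (183) and Cdk12 (157), a kinase of RNA polymerase II. The summits of Eip63E and Pitslre were 2321 and 507 bp inside the transcribed region. Genes for Cdk-binding proteins and inhibitors gave 1 of 7, trbl (269), whose product promotes the destruction of the stg protein. The Cdk inhibitor gene dap and the inhibitory kinase genes Wee1 and Myt1, which act against stg, had candidates at ranks 19194, 10643 and 17938 only.

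E2F and Rb genes gave 3 of 5, with Dp (248), E2f1 (179) and Rbf2 (169), and genes of the ubiquitin ligases that destroy cyclins (APC/C and SCF) gave 3 of 15, with Cdc16 (230.5), lmgA (155) and fzr (145). Mitotic kinase and phosphatase genes gave 5 of 11, led by aurA (240.2), tws (187), mts (174) and BubR1 (166). Checkpoint genes gave 4 of 5, with tefu (323), lok (184), grp (156) and mei-41 (149), the fly genes for ATM, Chk2, Chk1 and ATR. The best of these peaks, that of Eip63E at rank 464, ranked above the Cdk4 peak, as did those of tefu (533), trbl (787), Dp (933), aurA (1004) and Cdc16 (1079). The lists are short and were chosen with earlier results of these data known, so no list is set apart from all genes.

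**Figure D4:**
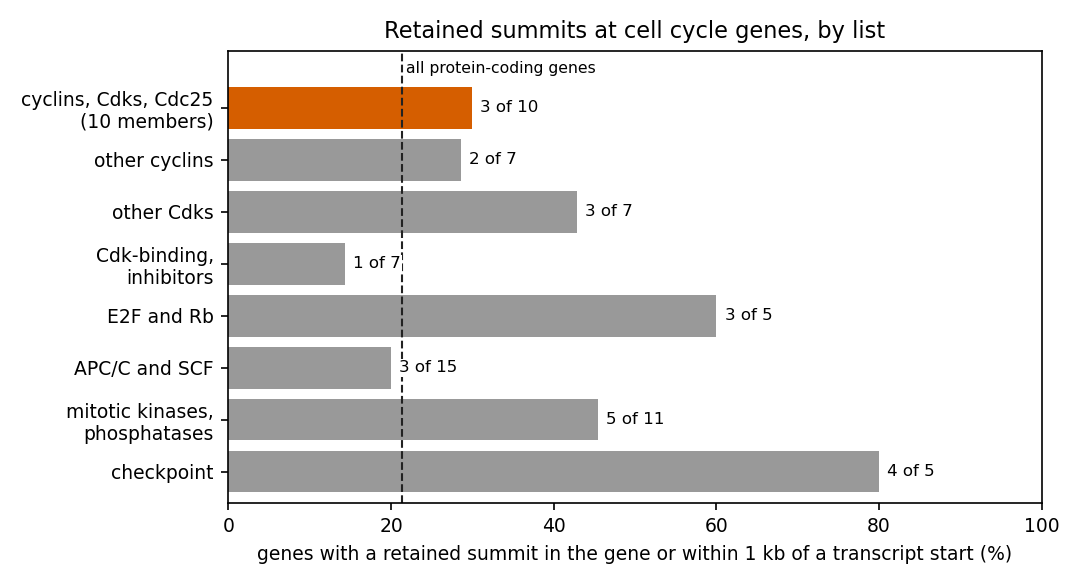
Bars give the percent of genes in each list with a retained summit in the gene or within 1 kb of a TSS, with the counts beside them and a dashed line at the 21.3% of all protein-coding genes. The 10 cyclin, Cdk and Cdc25 genes stand at 3 of 10, and the lists run from 1 of 7 to 4 of 5.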

How the data were processed

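ChIP-seq peak lists from 3 replicates of whole embryos were used on dm6, the build of the lists and, per its header, of the annotation. Per the descriptions deposited with the libraries, candidate lists were made for each replicate and for the pooled alignments against a control alignment, as input for IDR. No source used here names the aligner, peak caller, versions or IDR threshold. Each deposited peak has a signal value and a −log10 q-value from the authors' caller, and signal was used for ranks within a list only. Read depth is unknown, so no counting interval is given. The dm3 lists were not used.

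Genes came from Ensembl release 115 and sequence from RefSeq. Summits were assigned to genes with Python 3.11.15 and pandas 2.3.3, a step checked on placed summits with known answers. Best-ranked means the 3123 peaks of highest signal in a list. Replicate summits were matched to pooled ones within 200 bp, taking the nearest. No test was run: there is 1 group, and counts are given beside those of all protein-coding genes. The members and gene lists were chosen with earlier results of these data known. Named genes are the 10 members, genes with a TSS within 1 kb of their summits or nearest to them, up to 4 called genes by signal per list, the 2 genes most alike in rank, and CG1647. Others, such as those nearest to a retained peak elsewhere and the uncalled inhibitors, were named after their values were seen. Alternatives were other peak sets, positions, windows and matches, and leaving out each replicate. For the last, retained peaks were kept only if they overlapped a best-ranked peak of both other replicates.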

Additional observations from a re-analysis of the deposited data

How the results depend on the processing

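The counts rest on few genes, whose retained peaks ranked from 1411 to 3121 among 3123. In the 1561 retained peaks with the highest signal, 1 of the 10 genes (Cdk4) kept a summit (12.2% of all genes), with 1 summit in all in place of 4. Within 500 bp of a TSS 0 of the 10 kept one in place of 2, while the share of all genes went from 16.2% to 8.92%. The other cell cycle lists kept 6 of 57 genes in place of 21. This share was close to, and not above, the 12.2% of all genes, where it had been above 21.3%. It rests on so few genes that no reversal is read from it. To leave out a replicate, retained peaks were kept only if they overlapped a best-ranked peak of both other replicates. The retained list itself still rested on all 3 replicates. Under this filter, 2 to 3 genes had a summit, with 2 to 4 summits in all. It left 1 to 2 genes within 500 bp of a TSS and 10 to 15 genes of the other lists. The share of all genes fell under the same filter, from 21.3% to between 14.9% and 16.3%. Within 500 bp of a TSS it fell from 16.2% to between 11.0% and 12.3%. CycE was lost without replicate 2 and without replicate 3. In those cases a best-ranked peak of replicate 1 was required, and replicate 1 ranked the CycE summits 4734 and 6912. CycB and Cdk4 were kept in all 3 cases. The best-ranked peaks of replicate 2 in place of the retained list gave 5 genes (21.4% of all genes). A distance of 200 bp to a TSS left 1 gene, CycB, in place of 2 (11.9% of all genes). With 500 bp around a TSS in place of 1 kb Cdk4 dropped out (2 genes, against 19.9% of all genes). With 2 kb Cdk1 was added (4 genes, against 24.5% of all genes). The pooled candidate count of 9 ran from 7 to 10 over its alternatives, and the share of all genes from 55.3% to 70.3%. The mean signal percentile of the 4 retained peaks in the replicate lists was 89.7, and 87.9 to 90.4 over its alternatives. For the second CycE peak it was 88.2 by overlap and 81.0 by the nearest summit, because both CycE peaks overlap the same replicate peak. Core promoter motif 1 appeared at 1 retained summit, that of CycB, within 200 bp in place of 100 bp. Of 55 alternative values for the main counts and percentiles, 43 stayed within 1.5 times the count or within 1 SD. For genes with a summit, a fall from 3 to 2 lies within this limit although CycE or Cdk4 was lost, so the limit is a loose one. No paired analysis was possible because there is 1 group. Read depth is unknown and limits what the absence of a peak can show.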
